A study of Mus musculus with 4 samples.

Results

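The osteoblast transcription factors examined here are *Runx2*, *Cbfb*, *Sp7*, *Dlx5*, *Dlx6*, *Dlx3*, *Msx1*, *Msx2* and *Twist1*. These 9 genes were taken by name from a table of 24346 mouse gene symbols, and all 9 were found in it. The table holds RNA-seq values of primary bone marrow–derived mesenchymal stem/progenitor cells (mBMSCs) from C57BL/6 mice aged 3 months, the adherent marrow cells that are left when floating blood cells are washed off. The siScr group (2 samples) received a scrambled control siRNA. The siZBP1 group (2 samples) received siRNA against Zbp1, a sensor of left-handed nucleic acids. All 4 samples were transfected with the same lipid reagent. The study describes a pair of siRNAs against Zbp1 but not which of them was used for RNA-seq. Neither the culture nor the animal behind each sample is given, so that the p-values below measure only the spread between these samples, which may be technical. The comparison asks how the transcripts of these factors differ when Zbp1 is depleted in cells that can become osteoblasts.

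Osteoblasts, the cells that lay down bone, arise from mesenchymal progenitors through a relay of transcription factors. RUNX2 is the master regulator that commits a progenitor to the bone lineage, and it binds DNA firmly only as a heterodimer with CBFB, which has no DNA-binding activity of its own. SP7, also called osterix, is a zinc finger protein that acts downstream of RUNX2 and is needed for the passage from preosteoblast to osteoblast. The homeodomain proteins DLX3, DLX5 and DLX6 respond to bone morphogenetic proteins and act on *Runx2*, *Sp7* and bone matrix genes, while MSX1 and MSX2 share with them the core of the DNA motif and often act against them. TWIST1 is a basic helix-loop-helix protein of early mesenchyme that restrains RUNX2.

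Values are FPKM, fragments divided by transcript length and by the mapped fragments of the library, which may be compared between genes as levels per length. A gene was tested where its mean over the 4 samples reached 1 FPKM, which 11959 genes did. The test was limma with a variance trend on log2(FPKM + 1), and a gene was called lower or higher in siZBP1 samples where its p, adjusted over all tested genes by the method of Benjamini and Hochberg, was under 0.05. Every fold change given as a log2 difference is on that log2(FPKM + 1) scale, which understates the change of genes near or below 1 FPKM. The smallest two-sided p of an exact permutation test between 2 samples and 2 others is 0.333, which is why the calls depend on limma's pooling of variance over genes.

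The targeted gene followed its labels. *Zbp1* stood at 86.0 and 62.0 FPKM in the siScr samples and at 11.5 and 11.6 FPKM in the siZBP1 samples (limma log2 difference -2.56, adjusted p = 0.00322). The files give no read numbers, but the spacing of low values put the depth roughly between 10.3 and 20.3 M fragments a sample, with siZBP1 replicate 1 the shallowest. The labelled cell type was checked against its defining markers. *Pdgfrb*, a receptor of stromal cells, lay between 32.0 and 46.2 FPKM and *Pdgfra* between 1.31 and 3.97 FPKM, so that mesenchymal cells were present. The blood cell markers *Ptprc* (76.6 to 88.0 FPKM) and *Adgre1* (279 to 320 FPKM) were well above 0 in every sample, so that RNA of macrophages or related blood cells was present too.

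Of the 9 factors, *Sp7*, *Dlx5*, *Dlx6* and *Runx2* were lower in siZBP1 samples, *Cbfb*, *Msx2* and *Twist1* were tested and not called, and *Dlx3* and *Msx1* were below the minimum level for testing. No factor was called higher by limma, and none was higher at an unadjusted p under 0.05. These 4 of 7 tested factors stand beside 14.8% of all tested genes called lower and 13.5% called higher. Both siZBP1 values lay below both siScr values for 5 of the 9 factors, beside 29.3% of the 17788 genes with any value above 0, and the groups of the other 4 overlapped. The median log2 difference over the 7 tested factors was -0.85, against 0.0045 over all tested genes. *Dlx6* and *Msx2* reached the minimum level only through the siScr samples, so these counts and this median describe the tested factors and give no separate support.

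**Figure D1:**
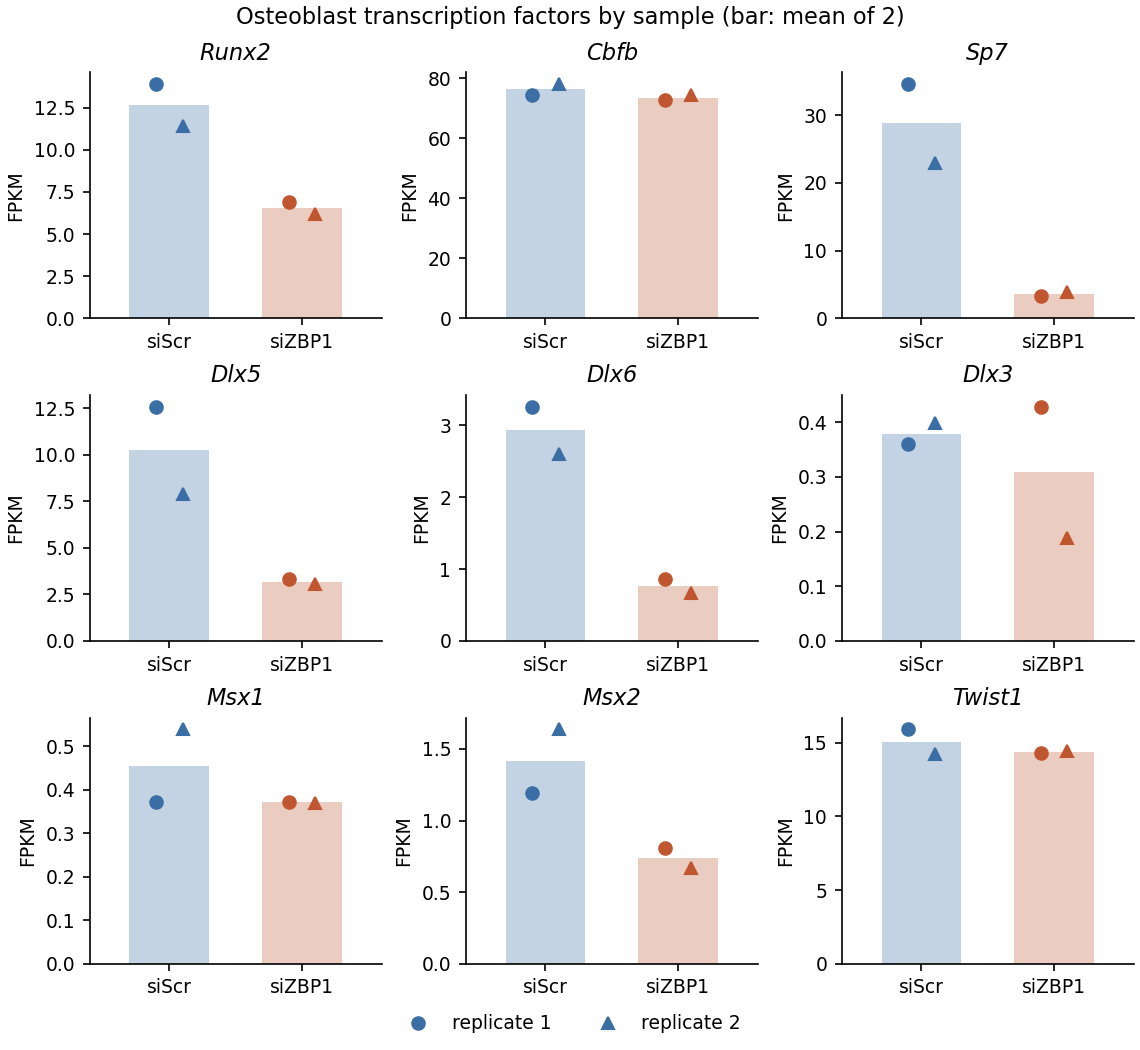
FPKM (vertical axes, each from 0) of the 9 factors in the 4 samples, 1 panel a factor. Points are samples (circle, replicate 1, and triangle, replicate 2) and bars are means of 2 samples. In the *Runx2*, *Sp7*, *Dlx5*, *Dlx6* and *Msx2* panels both siZBP1 points sit below both siScr points, and in the *Cbfb*, *Dlx3*, *Msx1* and *Twist1* panels the groups overlap.

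The *Runx2* gene occupies chr17:44495987-44814797 (GRCm38, minus strand). It was at 13.9 and 11.4 FPKM in the siScr samples and at 6.91 and 6.22 FPKM in the siZBP1 samples. The groups were apart, and the lower siScr sample was still well above the higher siZBP1 sample. From 12.7 ± 1.77 FPKM (SD, n = 2) in siScr cells, the mean went to 6.56 ± 0.487 FPKM (SD, n = 2), which is 51.9% of the siScr mean (limma log2 difference -0.85, standard error 0.11, 95% interval -1.15 to -0.55, adjusted p = 0.0110). With 1 sample left out, *Runx2* was called without siScr replicate 2 (limma adjusted p = 0.0294) and not without siScr replicate 1 (0.0511) or without either siZBP1 replicate (at most 0.103), with the log2 difference between -0.98 and -0.72 over the 4 samples left out in turn. In bulk samples, fewer osteoblast-lineage cells and less *Runx2* RNA per cell cannot be told apart, here and for each factor below.

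The start of the distal *Runx2* transcript is shown because RUNX2 is known to act on its own gene there. RefSeq's window on GRCm38.p6, chr17:44814578-44814877 on the minus strand, covers 250 bases before the start and 50 after it. Capitals mark the RUNX word TGTGGT, here read from the other strand as ACCACA, which occurs 3 times.

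Runx2 promoter window: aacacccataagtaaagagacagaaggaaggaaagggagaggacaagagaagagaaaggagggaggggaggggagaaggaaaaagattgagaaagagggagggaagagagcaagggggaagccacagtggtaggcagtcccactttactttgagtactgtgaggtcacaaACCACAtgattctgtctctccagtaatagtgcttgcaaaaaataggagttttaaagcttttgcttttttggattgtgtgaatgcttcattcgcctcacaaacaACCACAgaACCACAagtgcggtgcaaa

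The words begin 80 bases before the start (position -80) and at positions 24 and 32 after it. At least 1 copy of TGTGGT, on either strand, was present in 16.8% of 32851 mouse promoter windows of this length. Primers designed for chromatin immunoprecipitation at the *Runx2* promoter, tggtaggcagtcccactttacttt and ggcgaatgaagcattcacacaa, both match this window. They enclose 137 bases at chr17:44814614-44814750, which hold the word at position -80 and neither of the later ones. The words CTTTGAA or CTTTGAT and CTTTGTA or CTTTGTT, which TCF/LEF proteins, the DNA-binding partners of β-catenin, can bind, were searched on both strands. None of these exact words was in this window, while 16.9% of all windows hold at least 1. Sequences that differ by 1 base from these words or from the RUNX word, such as ctttgag and tgcggt in this window, were not counted. A match or its absence describes these letters only, and no binding was measured by RNA-seq. By the study's account, the primers span a Wnt/β-catenin response element. Its chromatin immunoprecipitation of Wnt3a-treated cells found less β-catenin at the *Runx2* promoter after ZBP1 depletion.

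*Cbfb*, which encodes the partner of all RUNX proteins, lies on chromosome 8 from 105170674 to 105217989. It was the most abundant of the 9, at 74.5 and 78.2 FPKM in the siScr samples and at 72.7 and 74.6 FPKM in the siZBP1 samples. The groups overlapped within a few FPKM. The siZBP1 mean was 96.5% of the siScr mean, and the 95% interval of the log2 difference ran from -0.17 to 0.07 (estimate -0.05, limma adjusted p = 0.448), so that a fall of the size seen for *Runx2* lay outside it.

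*Sp7* showed the largest difference of the 9 factors. Its gene lies on chromosome 15 from 102356606 to 102367182 on the minus strand. It was at 34.6 and 22.9 FPKM in the siScr samples and at 3.33 and 3.82 FPKM in the siZBP1 samples. The siScr samples differed between themselves by more than any siZBP1 value, and the groups were still far apart. The mean went from 28.8 ± 8.25 FPKM (SD, n = 2) to 3.57 ± 0.347 FPKM (SD, n = 2), 8.05-fold lower and 12.4% of the siScr mean (limma log2 difference -2.68, standard error 0.20, 95% interval -3.21 to -2.14, adjusted p = 0.00401). The 95% interval of the *Sp7* difference lay wholly below that of the *Runx2* difference. With either siScr replicate left out *Sp7* was still called, whereas without a siZBP1 replicate the adjusted p rose to at most 0.0806.

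*Dlx5* and *Dlx6* are neighbours on chromosome 6, at 6877805 to 6882085 on the minus strand and at 6863334 to 6868568 on the plus strand, a tail-to-tail arrangement that the other clusters of this gene family share. *Dlx5* was at 12.6 and 7.91 FPKM in the siScr samples and at 3.31 and 3.09 FPKM in the siZBP1 samples. *Dlx6* was at 3.26 and 2.60 FPKM in the siScr samples and at 0.859 and 0.664 FPKM in the siZBP1 samples. For both genes siScr replicate 1 was the highest sample and siZBP1 replicate 2 the lowest, and the groups were apart. *Dlx5* was 3.21-fold lower by the means, from 10.3 ± 3.31 to 3.20 ± 0.155 FPKM (SD, n = 2 each; limma log2 difference -1.39, standard error 0.21, adjusted p = 0.0147). *Dlx6* was 3.85-fold lower, from 2.93 ± 0.463 to 0.761 ± 0.138 FPKM (SD, n = 2 each; limma log2 difference -1.16, standard error 0.15, adjusted p = 0.00983). The calls of both survived leaving out either siScr replicate and were lost without either siZBP1 replicate.

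The antisense genes of this locus were low. *Dlx6os1* was at 0.568 and 0.314 FPKM in the siScr samples and at 0.146 and 0.279 FPKM in the siZBP1 samples, and *Dlx6os2* was at 0.157 and 0.116 FPKM and listed at 0 in both siZBP1 samples. Neither reached the minimum level for testing, and both were named here after their values had been seen. Whether reads were counted by strand is not stated, so reads of *Dlx6* and of its antisense partners cannot be told apart.

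*Dlx3*, a family member known from teeth, hair and bone, lies on chromosome 11 from 95120119 to 95125296. It stood at 0.359 and 0.398 FPKM in the siScr samples and at 0.428 and 0.188 FPKM in the siZBP1 samples, so that the highest and the lowest value were both siZBP1 samples. At the estimated depths these values stand for roughly 9 to 21 fragments a sample, which limits their precision, and the siZBP1 samples spread more widely than the groups differed. In a fit without the minimum level, the 95% interval of its log2 difference ran from -0.36 to 0.20 (limma adjusted p = 0.658).

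*Msx1* and *Msx2* encode closely related homeodomain repressors of the early limb, tooth and skull. *Msx1* (chromosome 5, 37820485 to 37824583) was at 0.371 and 0.539 FPKM in the siScr samples and at 0.372 and 0.371 FPKM in the siZBP1 samples, or roughly 7 to 21 fragments a sample. Apart from siScr replicate 2 these values were almost equal, and without the minimum level the 95% interval of the log2 difference was -0.29 to 0.13 (limma adjusted p = 0.539). *Msx2* (chromosome 13, 53466884 to 53473074) was at 1.19 and 1.64 FPKM in the siScr samples and at 0.808 and 0.670 FPKM in the siZBP1 samples. Both siZBP1 samples were below both siScr samples, and the siZBP1 mean was 52.2% of the siScr mean, a share close to that of *Runx2*. The test did not call it (limma log2 difference -0.47, standard error 0.16, 95% interval -0.88 to -0.05, unadjusted p = 0.0340, adjusted p = 0.0907). The values rest on roughly 20 to 82 fragments a sample. In its RefSeq window the homeodomain core TAATTA, which reads the same on both strands, begins at position -187, and 5.29% of all windows hold it.

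*Twist1* (chromosome 12, 33957671 to 33959829) was at 15.9 and 14.2 FPKM in the siScr samples and at 14.3 and 14.4 FPKM in the siZBP1 samples. Both siZBP1 values lay between those of the siScr samples. The siZBP1 mean was 95.2% of the siScr mean, with a 95% interval of the log2 difference from -0.25 to 0.12 (estimate -0.06, limma adjusted p = 0.547). With siScr replicate 1 left out the estimate became 0.01. Like *Cbfb*, this antagonist of RUNX2 had an interval that did not reach the *Runx2* difference.

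**Figure D2:**
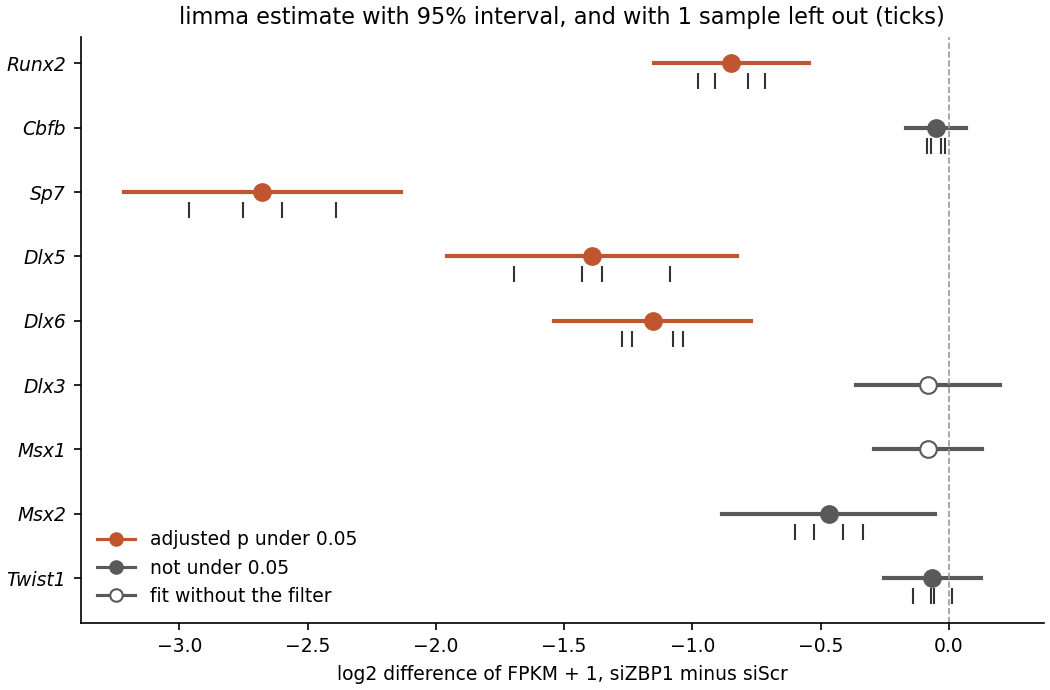
Log2 difference of FPKM + 1, siZBP1 minus siScr (horizontal axis), for each factor. Points and bars are the limma estimate and its 95% interval, ticks under a bar are the estimates with 1 sample left out, and open points come from the fit without the minimum level. The bars of *Runx2*, *Sp7*, *Dlx5* and *Dlx6* lie to the left of -0.5, the bar of *Msx2* ends at -0.05, and the bars of the other 4 factors cross 0.

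The order of the factors by level changed with the depletion. In siScr cells *Cbfb* was followed by *Sp7*, *Twist1*, *Runx2*, *Dlx5*, *Dlx6*, *Msx2*, *Msx1* and *Dlx3*. The values of *Runx2* and *Dlx5* overlapped there, as did those of *Msx1* and *Dlx3*. In siZBP1 cells *Sp7* stood at rank 4, after *Cbfb*, *Twist1* and *Runx2*, against rank 2 in siScr cells, and the order of the others was kept. *Dlx6* and *Msx2* overlapped in siZBP1 cells, as did *Msx1* and *Dlx3*, and no other neighbours did.

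Ratios of FPKM within a sample show the same shift without reference to any scaling between samples. The *Sp7* level was 2.49 and 2.01 times the *Runx2* level in the siScr samples, and 0.482 and 0.614 times in the siZBP1 samples. In every siScr sample *Sp7* was thus above its upstream regulator and in every siZBP1 sample below it. *Twist1* was 1.14 and 1.25 times the *Runx2* level in the siScr samples and 2.07 and 2.32 times in the siZBP1 samples. The *Cbfb* level was 5.36 and 6.85 times that of *Runx2* in the siScr samples and 10.5 and 12.0 times in the siZBP1 samples. Relative to *Runx2* RNA, the RNA of both the antagonist and the partner of RUNX2 thus stood higher in the siZBP1 samples. The levels of *Twist1* and *Cbfb* were themselves not called different, so that these ratios mostly restate the fall of *Runx2*. The samples also held RNA of blood cells, so the RNAs set in a ratio need not come from the same cells. Between the paired genes *Dlx5* and *Dlx6* the ratio was 3.86 and 3.04 in the siScr samples and 3.85 and 4.65 in the siZBP1 samples, so that the groups overlapped. The *Msx2* to *Msx1* ratio was 3.21 and 3.03 in the siScr samples against 2.17 and 1.81 in the siZBP1 samples, on few fragments.

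**Figure D3:**
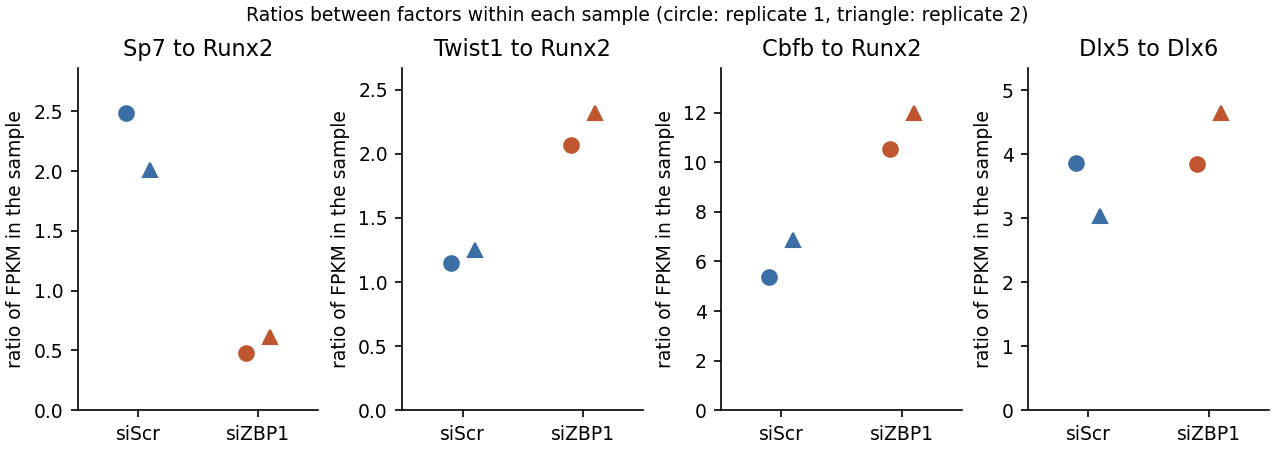
Ratio of the FPKM of 2 factors within each sample (vertical axes, from 0). Circles are replicate 1 and triangles replicate 2. The *Sp7* to *Runx2* ratio is above 2 in both siScr samples and below 1 in both siZBP1 samples, the *Twist1* and *Cbfb* to *Runx2* ratios are higher in both siZBP1 samples, and the *Dlx5* to *Dlx6* ratios overlap.

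Likeness of pattern was measured as the root mean square distance of log2(FPKM + 1), centred on each gene's mean, over the 4 samples and among all tested genes. The 5 genes nearest to *Runx2* were *Phf11d*, *Slc6a9*, *Scarf2*, *Smad6* and *Plcd1*, at distances from 0.0184 to 0.0263. The 5 genes nearest to *Sp7* were *Mir8102*, *Omd*, *Zbp1*, *Timp3* and *Ackr4*, at distances from 0.0761 to 0.131. Of the other factors, *Dlx6* was nearest to *Runx2* at a distance of 0.154, but only at rank 410 among all tested genes. *Dlx5* was nearest to *Sp7* at 0.647, at rank 114. With 4 samples in 2 groups this distance mostly orders genes by the size of the group difference.

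Most of the tested bone genes that are known to lie downstream of RUNX2 and SP7 were lower. Of 22 such genes, 15 were tested, 11 were called lower, 1 was called higher and 3 were not called, with a median log2 difference of -1.29 against 0.0045 over all tested genes, of which 14.8% were called lower and 13.5% higher. *Panx3*, *Smpd3* and *Bglap*, all called lower, reached the minimum level only through the siScr samples. Without these 3 genes, 8 of 12 were called lower and the median was -1.28. *Panx3*, a channel gene of maturing osteoblasts, went from 17.8 and 14.7 FPKM to 0.269 and 0.396 FPKM (limma log2 difference -3.69, adjusted p = 0.00155). *Alpl*, the alkaline phosphatase that frees phosphate for mineral, went from 243 and 157 FPKM to 25.7 and 23.0 FPKM (-2.96, adjusted p = 0.00388). *Omd*, a keratan sulphate proteoglycan of bone, went from 15.3 and 10.0 FPKM to 1.29 and 1.32 FPKM (-2.54, adjusted p = 0.00437). *Ibsp*, the bone sialoprotein gene, went from 116 and 139 FPKM to 27.5 and 25.9 FPKM (-2.21, adjusted p = 0.00221). The groups of all 4 were apart, and the *Alpl* and *Omd* means fell to 12.2% and 10.3% of siScr, close to the 12.4% of *Sp7*.

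The exceptions in that list were *Spp1*, *Mmp13*, *Sparc* and *Col1a2*, named after their values were seen. *Spp1*, the osteopontin gene, which macrophages also express, was called higher, from 1516 and 2625 FPKM to 4651 and 4447 FPKM (limma log2 difference 1.19, adjusted p = 0.0356). *Col1a2*, which encodes a chain of type I collagen, was at 93.4% of its siScr mean and not called. Its partner *Col1a1* was called lower, at 41.5% of its siScr mean. *Mepe* and *Sost*, genes of mature osteocytes, were listed at 0 in every sample.

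Among 23 cofactors, antagonists and modifying enzymes of RUNX2, 21 were tested, 7 were called lower, 2 higher and 12 not called, with a median log2 difference of -0.19, beside 14.8% and 13.5% of all tested genes called lower and higher. *Wwtr1*, which encodes the coactivator TAZ, went from 18.7 and 19.5 FPKM to 7.50 and 8.57 FPKM (limma log2 difference -1.16, adjusted p = 0.00355). *Snai2*, a zinc finger repressor of mesenchyme, went from 34.4 and 28.1 FPKM to 16.2 and 18.4 FPKM (-0.81, adjusted p = 0.0127). *Atf4*, whose protein works with RUNX2 on late osteoblast genes, went from 167 and 144 FPKM to 96.4 and 103 FPKM (-0.64, adjusted p = 0.0105). The lower calls also held the repressors *Zeb1* (log2 difference -0.49, adjusted p = 0.0156 by limma) and *Snai1* (-0.49, adjusted p = 0.0247), and the higher calls were *Cebpb* (0.38) and *Rb1* (0.34), all named after their values were seen.

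Relatives of the 9 factors were mostly too low to test or not called. Of 22 other RUNX, SP, DLX, MSX, TWIST and related mesenchymal genes, 10 were tested, 4 were called lower, 1 was called higher and 5 were not called, with a median log2 difference of -0.14, and 12 were below the minimum level. The shares over all tested genes were 14.8% lower and 13.5% higher. *Sp6*, a relative of *Sp7* that was not in the list and was named after its values were seen, was called higher, from 1.80 and 1.71 FPKM to 3.62 and 3.38 FPKM (limma log2 difference 0.71, adjusted p = 0.0124). *Prrx2* and *Prrx1*, paired-type homeobox genes of limb and skeletal mesenchyme, went from 40.7 and 29.3 FPKM to 14.1 and 13.9 FPKM and from 51.6 and 43.5 FPKM to 23.2 and 23.1 FPKM (to 40.0% and 48.7% of their siScr means, adjusted p = 0.00999 and 0.00520 by limma). *Tcf4*, a helix-loop-helix partner of TWIST proteins, was higher, from 30.2 and 28.9 FPKM to 42.3 and 43.8 FPKM (0.53, adjusted p = 0.00532). *Runx3* was at 78.3% of its siScr mean (limma log2 difference -0.32, adjusted p = 0.0257). *Runx1*, the blood-cell member of the family, was at 22.8 and 22.9 FPKM in the siScr samples and at 23.4 and 24.0 FPKM in the siZBP1 samples and was not called (adjusted p = 0.465 by limma). It was named after its values were seen.

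Markers of other cells moved with these differences. Of 18 macrophage and blood cell genes, all tested, 11 were called higher by limma, beside 13.5% of all tested genes, and none was lower at an adjusted or an unadjusted p under 0.05. Their median log2 difference was 0.29, and their summed level was 10621 and 11628 FPKM in the siScr samples against 16329 and 15583 FPKM in the siZBP1 samples. Without *Lyz2*, the most abundant of them, the sums were 7807 and 7981 FPKM against 10458 and 10181 FPKM. *Mrc1* (log2 difference 1.25), *Lyz2* (0.81), *C1qa* (0.74) and *C1qc* (0.53) differed most, whereas the defining markers *Ptprc* (0.15, adjusted p = 0.0744) and *Adgre1* (0.12, adjusted p = 0.165) were not called. Of 12 mesenchymal stromal genes, 11 were tested, 6 were called lower by limma, beside 14.8% of all tested genes, and none was higher at an adjusted or an unadjusted p under 0.05. Their median log2 difference was -0.46, and their summed level was 3913 and 3172 FPKM in the siScr samples against 1718 and 1771 FPKM in the siZBP1 samples. Most of that sum was *Col1a1*, and without it the sums were 846 and 652 FPKM against 590 and 579 FPKM. *Cxcl12* (log2 difference -2.81), *Col1a1* (-1.26) and *Prrx1* differed most of those called. *Pdgfrb* was at 73.3% of its siScr mean (limma log2 difference -0.44, adjusted p = 0.0108), and *Pdgfra* at 47.9% (-0.70, adjusted p = 0.0813). The part of these shifts in the falls of *Runx2*, *Sp7*, *Dlx5* and *Dlx6* was not tested. *Col1a1* and *Prrx1* are also in the lists above.

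Markers of other cell types were mixed or low. The adipocyte genes *Plin1*, *Cidec*, *Lep* and *Retn* were listed at 0 in every sample and *Adipoq* reached at most 0.219 FPKM, whereas *Lpl* (218 to 277 FPKM), *Fabp4* (91.2 to 114 FPKM), *Cebpa* (53.2 to 61.8 FPKM), *Cd36* (40.3 to 80.1 FPKM) and *Pparg* (13.7 to 22.8 FPKM), which macrophages can also express, were well above 0. Of the 10 adipocyte genes these 5 were tested, with 2 called lower (*Cd36* and *Pparg*) and 1 higher (*Lpl*), with a median log2 difference of 0.13, and the summed level lay between 470 and 512 FPKM. Of 8 chondrocyte genes 3 were tested and 1 was called lower, *Col2a1*, which reached the minimum level only through the siScr samples. It was at 5.41 and 2.50 FPKM in the siScr samples and 0.0749 and 0.0827 FPKM in the siZBP1 samples. *Col10a1* went the other way, from 1.86 and 1.27 FPKM to 2.82 and 2.50 FPKM. It was not called (limma log2 difference 0.52, unadjusted p = 0.023, adjusted p = 0.0695), and neither was *Sox9* (log2 difference -0.05). The chondrocyte sum was 10.3 and 6.06 FPKM against 4.89 and 4.95 FPKM, a fall that lay in *Col2a1*, and *Acan* was at most 0.0319 FPKM. The 6 endothelial genes summed to between 9.44 and 9.92 FPKM. The 2 tested were *Kdr* (limma log2 difference 0.22) and *Vwf* (-0.08), and neither was called or had an unadjusted p under 0.05. *Pecam1* was at most 0.660 FPKM and *Cdh5* at most 1.05 FPKM.

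**Figure D4:**
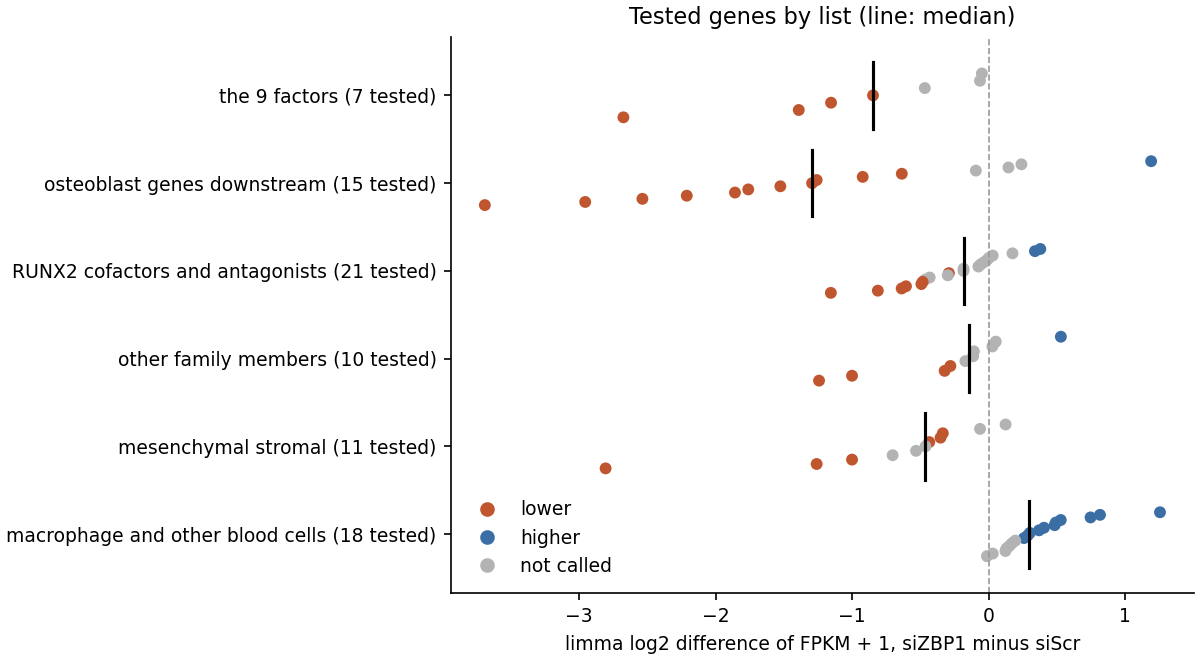
Limma log2 difference of FPKM + 1, siZBP1 minus siScr (horizontal axis), of every tested gene of 6 lists, with the list's median as a vertical line. The downstream osteoblast genes reach furthest left, with *Spp1* alone called higher, and the blood cell genes lie at or to the right of 0 but for 1 gene just below it.

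The seed of an siRNA, bases 2 to 8 of its guide strand, can pair with 3' UTRs of transcripts other than its target. The annotated 3' UTRs of the 9 factors (GENCODE, GRCm38) were searched for the 7 bases that pair with the seed, or for bases 2 to 7 followed by A. The words were CAGCCAA and AGCCAAA for siZBP1-1, and TCCGGGA and CCGGGAA for siZBP1-2. The target in the *Zbp1* coding sequence for the former lies at chr2:173215780-173215798, and that in the 5' UTR for the latter at chr2:173218901-173218919, both on the minus strand. Matches were found in *Runx2*, *Sp7* and *Dlx5*, at chr17:44604379-44604398, chr15:102357950-102357968 and chr6:6878169-6878187, each on the minus strand, and they are shown with the targets because these 3 factors were called lower. Capitals mark the matched bases in the factors. In the *Zbp1* targets, which match their siRNA over all 19 bases, capitals mark only the word that pairs with bases 2 to 8.

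Zbp1, siZBP1-1 target: gggaatgacgaCAGCCAAa
Runx2, siZBP1-1 seed: aaaaaatatatCAGCCAAAa
Sp7, siZBP1-1 seed: tcaagagtcttAGCCAAAc
Zbp1, siZBP1-2 target: gggtatttgttTCCGGGAt
Dlx5, siZBP1-2 seed: tggcactggccTCCGGGAc

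The *Runx2* match, of 8 bases, begins at base 3518 of a 3' UTR of 3904 bases. The *Sp7* match begins at base 180 of 1531 and the *Dlx5* match at base 330 of 701. *Dlx6*, which was also called lower, held no match to either seed, and neither did *Cbfb*, *Dlx3*, *Msx1*, *Msx2* or *Twist1*. A siZBP1-1 word was present in 20.7% of 10868 tested genes with a 3' UTR, in 42.9% of those with a 3' UTR of a length like that of *Runx2* and in 21.1% of those like *Sp7*. The siZBP1-2 words were present in 4.74% of the tested genes and in 2.79% of those with a 3' UTR like that of *Dlx5*. A match describes letters only, and the part of such matches in the lower levels was not tested.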

How the data were processed

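The authors deposited FPKM values per gene symbol and sample. Per the study's methods, libraries were made with a TruSeq kit, reads were mapped with TopHat and FPKM were extracted with HTSeq. The submitters' processing notes name TopHat, Cufflinks and the mm10 build. The gene annotation, any filter, strandedness and read numbers are not given in the sources used here. FPKM are scaled to the mapped fragments of each library, so that a change in abundant transcripts moves all other values. From the deposited FPKM, log2(FPKM + 1) of genes with a mean of at least 1 was tested with limma 3.58.1 (R 4.3.3, variance trend), 2 samples against 2, with Benjamini-Hochberg adjusted p under 0.05. A log2 difference is siZBP1 minus siScr. The fit was also run on simulated data in which the spreads were shuffled between genes. Shuffling removes the tie of spread to level, so that run gives no support to the calls here. Depth was estimated from the spacing of low FPKM values of genes with only 1 annotated transcript, within set limits of length. Fragments of a factor came from that depth and the transcript's length, so both estimates are rough. Gene positions and the longest 3' UTR of each gene came from GENCODE M21 (GRCm38), and promoter windows from RefSeq (GRCm38.p6), which matched 5 of the 9 factors (*Runx2*, *Cbfb*, *Msx1*, *Msx2* and *Twist1*). A 3' UTR of like length is 0.8 to 1.25 times as long. Python 3.11.15 with numpy 2.4.6, pandas 2.3.3 and matplotlib 3.10.9 was used.

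The 9 factors, the lists of other genes and the tests were chosen with earlier results of these data known. All factors, *Zbp1* and the 4 tested genes with the largest log2 difference in each list are named, and any other gene is said to be named after its values were seen or stands for a defining marker or a count. A gene that this rule names is not reported here. Alternatives were other pseudocounts, other filters, other scalings, no variance trend, a replicate block and leaving out each sample.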

Additional observations from a re-analysis of the deposited data

How the results depend on the processing

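Over all samples, 8 alternatives were run: a pseudocount of 0.1 or 0.5, no filter, a mean of at least 5 FPKM, scaling of each sample to 1 total (TPM), quantile normalization, no variance trend and a replicate block. *Runx2*, *Sp7* and *Dlx5* were called lower in all 8 and *Dlx6* in the 7 that tested it, since at a mean of at least 5 FPKM neither *Dlx6* nor *Msx2* was tested and 3 factors were called. *Msx2* was called in none of 7, with adjusted p from 0.0577 to 0.171 and log2 differences from -0.84 to -0.35. Leaving out 1 sample at a time gave between 0 and 4 factors called lower, 23 to 1297 tested genes called lower and 22 to 1019 called higher, against 4, 1766 and 1618 with all samples. No factor was called without either siZBP1 replicate, where the lone siZBP1 sample is assumed to vary like the siScr pair. *Twist1* ran from -0.14 to 0.0104 with 1 sample left out, changing sign without siScr replicate 1. Replicate numbers are shared by the groups but nothing says that they pair the samples, and the deviations of same-numbered samples correlated at -0.063. With the replicate block, 4 factors, 1654 genes lower and 1465 genes higher were called. Quantile normalization gave 1517 lower and 1812 higher. Few fragments limit what can be said of *Dlx3*, *Msx1* and *Msx2*.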
